A study of Mus musculus with 18 samples.

Results

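The genes described here code for the pore-forming subunits of AMPA and NMDA receptors, the main excitatory receptors of the brain. They were chosen as every probe whose symbol in the array's probe-to-gene table is 1 of 10 listed genes: Gria1, Gria2, Gria3 and Gria4 for AMPA receptors, and Grin1, Grin2a, Grin2b, Grin2c, Grin2d and Grin3a for NMDA receptors. The table names a probe for 8 of the 10 genes, by 19 probes of the 44505 tested, in a set of 17274 named genes. Grin1 and Grin3a have no probe under their symbol and are not analysed here.

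The study compared male C57BL/6J mice, 10.5 weeks old, after social defeat. Defeated mice were split by their later social avoidance into susceptible and unsusceptible animals, and non-defeated mice served as controls. Tissue came from the nucleus accumbens (NAc), a part of the ventral striatum, and from the ventral tegmental area (VTA) of the midbrain. Each one-colour array carried RNA pooled from 4 animals, and each of the 6 combinations of structure and behaviour had 3 pools, 18 arrays in all. The p-values therefore measure the spread between pools, not between animals. Control, susceptible and unsusceptible mice shared strain, sex and age, and no group carried an engineered allele or a drug according to the labels.

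AMPA and NMDA receptors both bind glutamate and each assembles from several related subunits. AMPA receptors carry the fast part of the excitatory current, and the GluA2 subunit, coded by Gria2, keeps most of them closed to calcium. NMDA receptors need the obligatory GluN1 subunit, admit calcium, and take their kinetics from the GluN2 subunits coded by Grin2a to Grin2d. In the NAc these receptors sit mainly on GABAergic medium spiny neurons, and in the VTA on dopamine, GABA and glutamate neurons.

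Levels are log2 intensities after quantile normalization over the 18 arrays. No background was subtracted here, and whether it was before deposit is not known. Where it was not, the difference of a dim probe is understated. The level of one probe cannot be set against that of another. A gene is given by its brightest probe unless another is named. A probe is called dim below 7.39, the median of all probe means. Below it lay the single probe of Grin2d, 1 of 3 probes of Gria4, and 1 of 2 probes each of Grin2a and Grin2b.

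Some arrays stood apart. The scanner medians ran from 148.3 to 253.1, and the brightest array was that of NAc unsusceptible pool 3. The upper quartile was lowest, 287.3, in NAc control pool 3. Transcripts of dopamine neurons (4 markers, summed linear intensity) reached only 7036 in VTA unsusceptible pool 3, where the other 8 VTA pools lay between 35304 and 60924 and the 9 NAc pools between 1218 and 1586. Medium spiny markers (4 of 6 measured) summed to between 28250 and 39516 in the NAc and to between 1906 and 2644 in the VTA. Cortical excitatory markers (3 of 5 measured) summed to between 1491 and 5872 in NAc pools and to between 492 and 1298 in VTA pools, so these transcripts differed with the structure as well. Their part in the differences between the structures was not tested.

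The first comparison set the VTA against the NAc over all behaviour groups, 9 pools against 9. Of the 8 measured subunit genes, 6 were lower in the VTA, 1 (Gria4) was higher and 1 (Grin2d) did not pass the threshold, an adjusted p of 0.05 over all probes. Among all named genes, 40.8% passed in this comparison, 22.8% higher and 18% lower. The median difference of the 8 genes was -0.71 log2 units, beside 0.01 for all named genes. In bulk tissue, fewer cells that make a transcript and less of it per cell cannot be told apart.

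**Figure D1:**
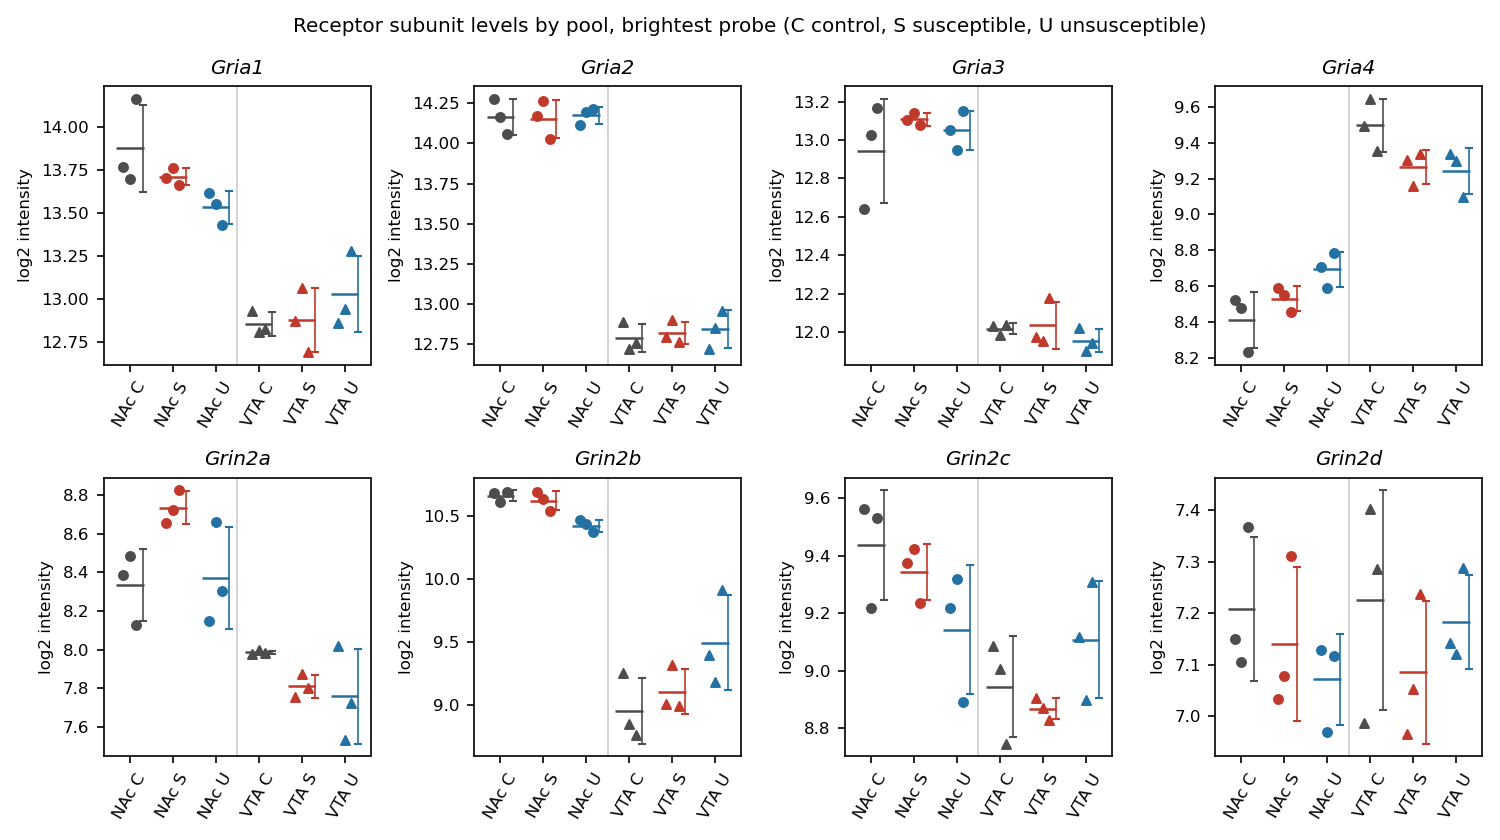
Log2 intensity of the brightest probe of each measured subunit gene (vertical axes) in every pool of the 6 groups (horizontal axes), with circles for NAc pools, triangles for VTA pools, and lines and bars for the mean and SD of 3 pools. Gria1, Gria2, Gria3, Grin2a and Grin2b lie lower in all VTA pools than in any NAc pool, Gria4 lies higher, and Grin2c and Grin2d overlap.

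Among the AMPA receptor genes, Gria2, whose edited subunit limits calcium entry, showed the difference with the smallest p. In the NAc it lay at 14.28, 14.16 and 14.06 in control pools 1 to 3, at 14.17, 14.26 and 14.03 in susceptible pools, and at 14.11, 14.20 and 14.22 in unsusceptible pools. In the VTA the control pools read 12.89, 12.72 and 12.75, the susceptible pools 12.80, 12.90 and 12.77, and the unsusceptible pools 12.72, 12.85 and 12.96. For this probe the 3 behaviour groups of a structure overlapped, while every VTA pool lay below every NAc pool. The difference was -1.35 ± 0.05 log2 units (SE, 2.54-fold lower, adjusted p 1.29e-17). The second Gria2 probe, 106650184, gave a smaller difference of -0.51 in the same direction.

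Gria1 codes for GluA1, the subunit whose phosphorylation and surface delivery accompany many forms of synaptic plasticity. Its NAc pools had a lowest value of 13.43, a median of 13.70 and a highest value of 14.17, and its VTA pools had 12.69, 12.87 and 13.28. The structures did not overlap, and Gria1 was lower in the VTA by -0.79 ± 0.06 (1.73-fold, adjusted p 2.89e-10). The other 3 probes of Gria1 read -1.21, -1.01 and -0.40, all past the threshold. Only for the last of them, probe 3780750, did pools of the structures overlap.

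Gria3, coding for the GluA3 subunit that pairs mainly with GluA2, had a lowest, median and highest NAc level of 12.64, 13.08 and 13.17. The VTA values were 11.90, 11.99 and 12.18. The difference was -1.03 ± 0.06 (2.04-fold lower, adjusted p 1.76e-13). The other 3 probes gave -1.01, -1.14 and -0.68, and for each of the 4 probes all VTA pools lay below all NAc pools.

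Gria4 codes for GluA4, an AMPA subunit with fast kinetics. Of the 8 measured genes listed at the start, it was the single one that was higher in the VTA by its brightest probe. The NAc values were 8.52, 8.48 and 8.23 in control pools, 8.59, 8.55 and 8.45 in susceptible pools, and 8.71, 8.59 and 8.79 in unsusceptible pools. The VTA values were 9.50, 9.65 and 9.35 in control pools, 9.30, 9.16 and 9.33 in susceptible pools, and 9.34, 9.30 and 9.10 in unsusceptible pools. All VTA pools lay above all NAc pools, and the difference was 0.79 ± 0.06 (1.73-fold higher, adjusted p 5.24e-11). The probes of Gria4 disagreed in size. Probe 101690519 was higher by 0.22 (adjusted p 0.00968), a call lost with median scaling (0.16, adjusted p 0.244), and the dim probe 102470035 differed by -0.02 (adjusted p 0.848).

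The 250 bases upstream of the Gria4 start, from RefSeq on assembly GRCm38.p6, are shown because Gria4 ran opposite to the other AMPA receptor genes. They cover chr9:4796235-4796484 on the minus strand, outside the annotated span of the gene. Capitals mark CpG dinucleotides.
Gria4 upstream: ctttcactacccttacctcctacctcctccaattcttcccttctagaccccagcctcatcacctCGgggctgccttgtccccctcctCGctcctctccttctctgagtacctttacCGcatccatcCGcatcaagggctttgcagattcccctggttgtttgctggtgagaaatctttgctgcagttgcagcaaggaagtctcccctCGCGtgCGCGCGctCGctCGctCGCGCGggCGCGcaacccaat
This stretch holds 58.8% G and C and 16 CpG dinucleotides, where the median over 32851 mouse promoter windows of the same length was 6 and 74.6% had fewer. Neither the GC box GGGCGG nor the TATA box TATAAA nor the cAMP response motif TGACG was found on either strand. Of all windows, 32.7%, 12.4% and 17.8% held these motifs. These traits were not particular to Gria4. The window of Gria2, which was lower in the VTA, held 64.8% G and C, 19 CpG dinucleotides (80.3% had fewer) and none of these motifs. That window was not fully outside the annotated span of its gene. The arrays carry no measurement of this stretch, and the absence of these letters says nothing of a factor.

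**Figure D2:**
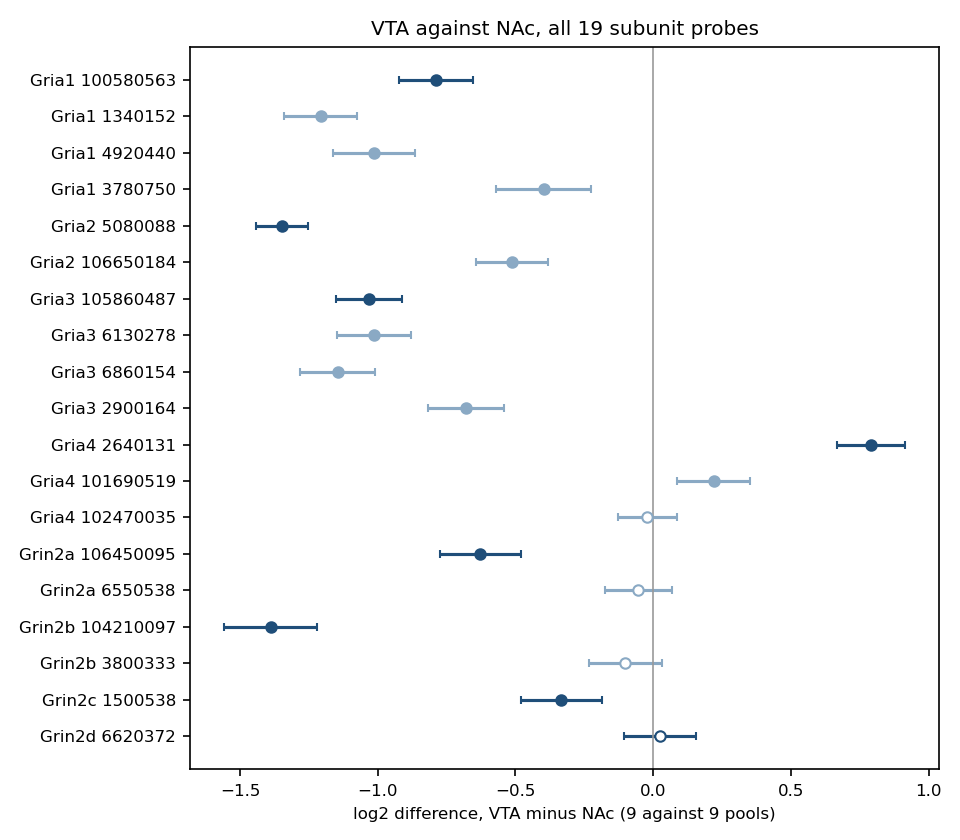
Log2 difference of VTA minus NAc (horizontal axis, mean of 9 pools minus mean of 9 pools) for all 19 subunit probes (vertical axis), with 95% confidence intervals, dark symbols for the brightest probe of a gene and filled symbols for probes past the threshold. Of the 19 probes, 13 lie lower, 2 higher and 4 did not pass.

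Among the NMDA receptor genes, Grin2b differed most. It codes for GluN2B, the subunit of slow, long-lasting NMDA currents that prevails early in development and persists in the forebrain. In the NAc it lay at 10.68, 10.62 and 10.70 in control pools, at 10.69, 10.63 and 10.54 in susceptible pools, and at 10.47, 10.43 and 10.37 in unsusceptible pools. In the VTA the control pools read 9.25, 8.84 and 8.76, the susceptible pools 9.01, 9.31 and 8.99, and the unsusceptible pools 9.39, 9.18 and 9.91. The NAc pools were close together, and the VTA pools, all lower, spread over a wider range (SD 0.12 against 0.35, n = 9 each). The difference was -1.39 ± 0.08 (2.62-fold lower, adjusted p 4.57e-13), and without VTA unsusceptible pool 3 it was -1.46. The second probe of Grin2b was dim in both structures and differed by -0.10 (adjusted p 0.302).

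Grin2a codes for GluN2A, the subunit that takes over from GluN2B at many mature synapses. Its lowest, median and highest level was 8.13, 8.49 and 8.83 in the NAc and 7.53, 7.87 and 8.02 in the VTA. The structures did not overlap, and Grin2a was lower in the VTA by -0.63 ± 0.07 (1.55-fold, adjusted p 8.10e-08). Its second probe, dim in both structures, differed by -0.05 (adjusted p 0.606).

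Grin2c, coding for GluN2C, a subunit best known from cerebellar granule cells and astrocytes, differed least among the genes called. The NAc pools ran from 8.89 over a median of 9.32 to 9.56 and the VTA pools from 8.75 over 8.90 to 9.31, so the structures overlapped. The difference was -0.33 ± 0.07 (1.26-fold lower, adjusted p 0.000574). Grin2d, coding for GluN2D, a subunit of interneurons and brainstem nuclei, gave a mean of 7.14 ± 0.13 in the NAc and 7.16 ± 0.15 in the VTA (SD, n = 9). Both lie below the median probe. The difference was 0.02 ± 0.06 (adjusted p 0.855), and without a measure of background the arrays do not show whether Grin2d was detected.

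Over all 19 probes, 15 passed, 13 lower and 2 higher, where 28% of all probes passed. Pools of the structures did not overlap for 6 of the 8 genes, beside 19% of all named genes. In the 3 control pools of each structure alone, the same contrast called 1 gene higher (Gria4, 1.09 ± 0.10) and 6 lower, beside 29.4% of all named genes. Grin2b differed there by -1.72 ± 0.14, Gria2 by -1.38 ± 0.08, Gria1 by -1.02 ± 0.11 and Gria3 by -0.93 ± 0.10. Grin2c (-0.49 ± 0.12, adjusted p 0.00466) and Grin2a (-0.35 ± 0.12, adjusted p 0.0484) were closer to the threshold. With median scaling in place of quantile normalization, Gria3 (adjusted p 0.0619), Grin2a (0.510) and Grin2c (0.555) did not pass in control pools, and over all probes the share of calls that were higher in the VTA rose from 53.8% to 75.6%. Grin2a also lost its call in control pools in 5 of 6 fits that left out 1 array, without each control pool but NAc pool 3, with adjusted p between 0.0997 and 0.195.

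Genes that act with these receptors were followed as lists of the same pathway. Kainate and delta receptor subunits with Grin3b, the remaining ionotropic glutamate receptors, split between the structures: of 6 measured of 8 listed, 3 were higher in the VTA, 2 lower and 1 was not called, with a median of 0.14. Of all named genes, 22.8% were higher and 18% lower in this comparison. The kainate receptor genes Grik1 (1.18 ± 0.09) and Grik4 (0.28) and the glycine-binding NMDA subunit gene Grin3b (0.65) were higher, and the kainate receptor genes Grik2 (-1.04 ± 0.06) and Grik5 (-0.91) were lower. AMPA receptor auxiliary subunits, which set trafficking and gating, were lower in 6, higher in 2 and not called in 2 of 10 measured of 12 listed, with a median of -0.50. Cacng2, coding for stargazin, was higher by 0.92 ± 0.07 and its relative Cacng5 by 0.42. Shisa7 (-2.22 ± 0.08), the cornichon genes Cnih3 (-1.39 ± 0.17) and Cnih2 (-0.70), and Cacng3 (-0.83) were lower. Auxiliary subunit genes thus fell on both sides of 0, beside the same shares of all named genes.

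Postsynaptic scaffold genes, which anchor the receptors, were lower in the VTA in 11, higher in 1 and not called in 4 of 16 measured of 19 listed, with a median of -0.75, beside 18% lower and 22.8% higher among all named genes. Dlgap2 differed by -2.40 ± 0.06, Homer1 by -2.31 ± 0.06, Dlg4, the gene of PSD-95, by -1.30 and Dlgap3 by -1.19, while Homer3 was higher by 0.18. Genes of receptor signalling, trafficking and editing were lower in 11, higher in 1 and not called in 2 of 14 measured of 15 listed, with a median of -0.78. The calmodulin-binding protein gene Nrgn (-2.68 ± 0.10), the kinase subunit gene Camk2a (-2.62 ± 0.14), the calcineurin gene Ppp3ca (-1.61 ± 0.05) and the striatum-enriched phosphatase gene Ptpn5 (-1.54 ± 0.07) were lower, and Camk2g, another subunit of the same kinase, was higher by 1.02 ± 0.06. Medium spiny markers were lower in the VTA in 4 of 4 measured (median -4.14), and their part in the values of the partner genes was not tested.

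**Figure D3:**
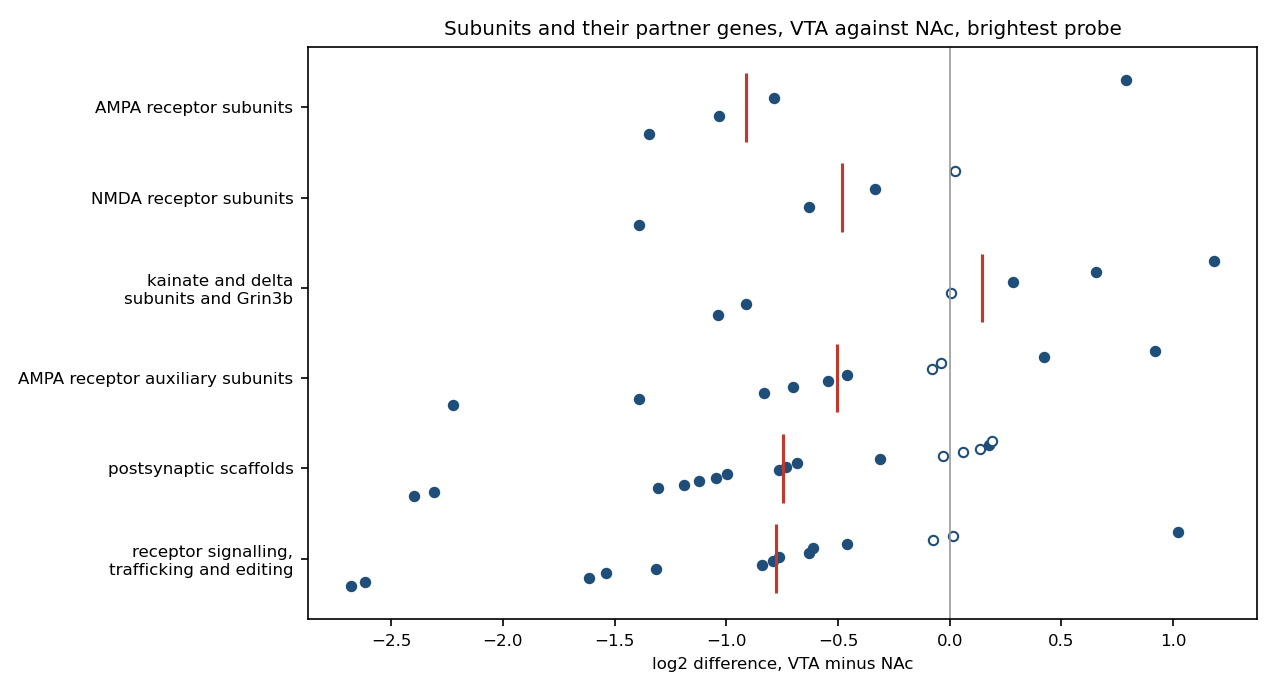
Log2 difference of VTA minus NAc (horizontal axis) for each measured gene of the receptor lists (vertical axis), with filled circles for genes past the threshold, open circles for the others and a red line at the median of each list. The medians run from -0.91 for AMPA receptor subunits and -0.48 for NMDA receptor subunits to 0.14 for kainate and delta subunits with Grin3b.

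The genes whose level over the 18 pools was most like that of a subunit gene were sought among 11590 named genes above the median probe, by Pearson's r. These values are descriptions, since the pools form separate clusters by structure. For Gria2 they were Dclk1 (0.995) and Arpp21 (0.994), for Grin2b Rbfox1 and Camk2a (0.986 each), for Gria3 Mas1 (0.984) and Cort (0.983), and for Gria1 H2ac11 (0.973) and Camkk2 (0.972). For Gria4, high in the VTA, they were Hspa4l (0.978) and Pmp22 (0.976). Likeness was lower for Grin2a (Myt1l, 0.935, and Ypel2, 0.923), Grin2c (Edc3, 0.911, and Cnot2, 0.899) and the dim Grin2d (Apobr, 0.746, and Slc19a3, 0.725).

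The study's own comparisons set each defeated group against controls within a structure. Across these 4 comparisons, the 2 of susceptible against unsusceptible pools, and the 2 tests of whether an effect differed between the structures, 0 of the 8 subunit genes and 0 of the 19 probes passed the threshold with limma. Among all probes, 0.0652% passed for NAc susceptible against control, 0.00225% for each of NAc unsusceptible against control, NAc susceptible against unsusceptible and VTA susceptible against control, 0.00674% for VTA unsusceptible against control, and 0% for the rest. At an unadjusted p under 0.05, 15 of the 64 values of a gene in a comparison were reached, beside shares of all named genes that ran from 3.14% to 13.1% over the 8 comparisons. Within a structure, the 95% confidence intervals of the brightest probes lay between -0.68 and 0.83 log2 units. No pair of behaviour groups of a structure differed past the threshold for any of the 8 genes. The comparisons of a structure share their control pools, and the remaining comparisons reuse the same pools. The 15 values are therefore not independent, and the values are given side by side.

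**Figure D4:**
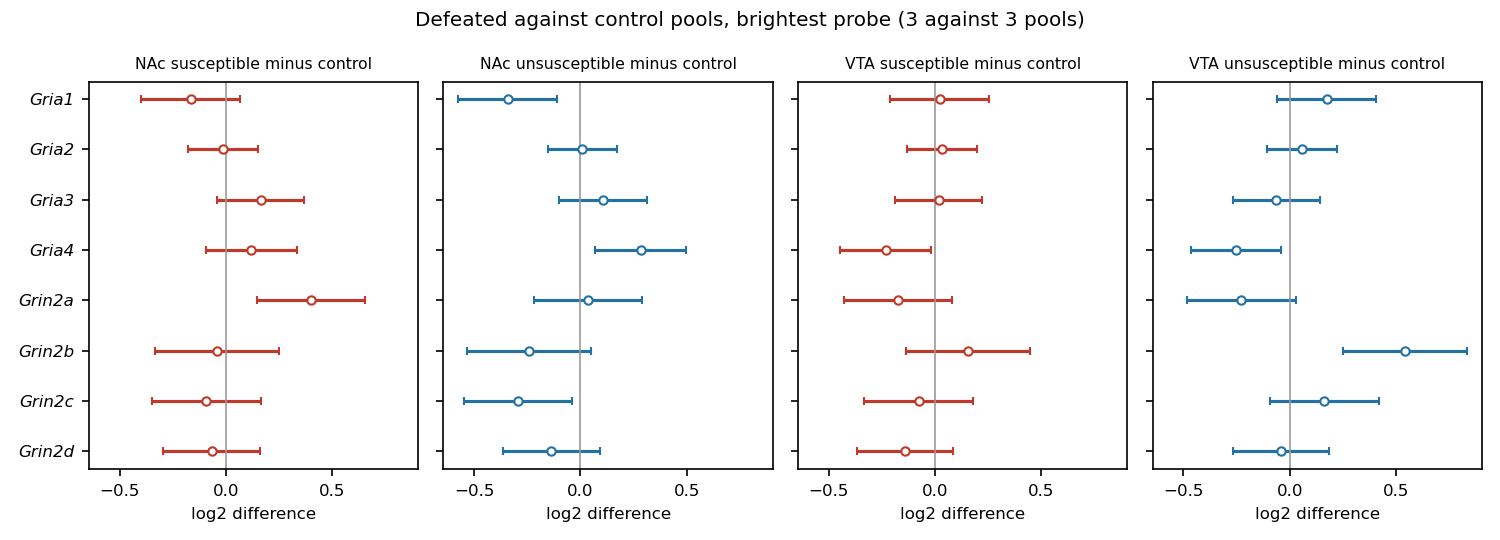
Log2 difference of susceptible or unsusceptible minus control pools (horizontal axes, 3 against 3 pools) in the NAc and VTA for the 8 subunit genes (vertical axis), with 95% confidence intervals and open circles because none passed the threshold. The values with the smallest p are Grin2b in VTA unsusceptible pools (0.54) and Grin2a in NAc susceptible pools (0.40).

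In the NAc, susceptible against control, 0 of 8 genes passed, beside 0.0637% of all named genes, and 1 reached an unadjusted p under 0.05, beside 8.37%. Grin2a had the largest difference. Its susceptible pools read 8.66, 8.72 and 8.83 and its control pools 8.39, 8.49 and 8.13, so that all susceptible pools lay above all controls, as was the case in either direction for 12.7% of all named genes. The difference of 0.40 ± 0.12 had an adjusted p of 0.310, and it was 0.30 without NAc control pool 3. Gria1 read 13.70, 13.76 and 13.67 in susceptible against 13.77, 13.70 and 14.17 in control pools, a difference of -0.17 ± 0.11 that was -0.02 without NAc control pool 3 and turned to 0.06 with median scaling. Gria3 (0.16 ± 0.10) differed by 0.28 and Gria4 (0.12 ± 0.10) by 0.03 without that pool. Blood markers (5 of 5 measured) summed to between 55992 and 67270.2 in the susceptible pools and to between 22476 and 25141 in the controls, and their part in these values was not tested.

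Secondary probes gave further differences in the NAc susceptible pools. Probe 101690519 of Gria4 read 8.11, 8.05 and 8.11 against 7.60, 7.84 and 7.65 in controls, a difference of 0.40 ± 0.11 (adjusted p 0.249). Probe 106650184 of Gria2 differed by 0.38 ± 0.11 (adjusted p 0.267) and probe 6130278 of Gria3 by 0.35 ± 0.11 (adjusted p 0.352), both with all susceptible pools above all controls. The brightest probes of the same genes read 0.12, -0.01 and 0.16, so the probes of a gene differed in size and, for Gria2, in sign. The probes of Gria1 differed in sign as well. Probe 3780750 read 0.41 ± 0.14 (adjusted p 0.400) and probe 4920440 read 0.18, beside -0.01 for probe 1340152 and -0.17 for the brightest probe.

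In the NAc, unsusceptible against control, 0 of 8 genes passed, beside 0.00579% of all named genes, and 3 reached an unadjusted p under 0.05, beside 13.1%. Gria1 read 13.62, 13.55 and 13.43 in unsusceptible against 13.77, 13.70 and 14.17 in control pools, with no overlap. Pools did not overlap for 3 of the 8 genes, beside 14.7% of all named genes. Its difference was -0.34 ± 0.11 (adjusted p 0.216), but it turned to 0.18 with median scaling and was -0.20 without NAc control pool 3 and -0.14 without the 3 arrays that stood apart. The probes of Gria1 disagreed, with -0.30 for probe 1340152 and 0.38 for probe 3780750, which passed the threshold with median scaling (0.95, adjusted p 0.0342).

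Gria4 lay at 8.71, 8.59 and 8.79 in NAc unsusceptible pools and at 8.52, 8.48 and 8.23 in controls. All unsusceptible pools were above all controls for this probe and for the other 2 Gria4 probes. The differences were 0.28 ± 0.10 (adjusted p 0.268), 0.38 ± 0.11 (adjusted p 0.158) and 0.23 ± 0.09 (adjusted p 0.316). With median scaling they kept their sign, and probe 101690519 passed the threshold (0.57, adjusted p 0.0393). Without the 3 arrays that stood apart, the brightest probe differed by 0.15 (adjusted p 0.858).

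Grin2b read 10.47, 10.43 and 10.37 in NAc unsusceptible pools, all below the controls at 10.68, 10.62 and 10.70, with a difference of -0.24 ± 0.14 (adjusted p 0.542) that turned to 0.33 with median scaling. Grin2c, at 9.22, 9.32 and 8.89 against 9.56, 9.22 and 9.53, differed by -0.29 ± 0.12 (adjusted p 0.350), by -0.17 without unsusceptible pool 3, and by 0.17 with median scaling. For Gria1, Grin2b and Grin2c the direction in NAc unsusceptible pools therefore depended on the scaling of the arrays. Gria2 (0.01 ± 0.08), Gria3 (0.11 ± 0.10), Grin2a (0.04 ± 0.12) and Grin2d (-0.14 ± 0.11) had 95% intervals that include 0. So did Grin2b, with an interval from -0.53 to 0.05. Without NAc control pool 3 the brightest Gria3 probe differed by 0.22. The other Gria3 probes were lower in unsusceptible pools, 6130278 by -0.16 and 2900164 by -0.21. Probe 6860154 differed by -0.29 (unadjusted p 0.0182, adjusted p 0.309) with no overlap, as was the case for 14.7% of all named genes. Blood markers summed to between 26529 and 45204 in NAc unsusceptible pools against 22476 to 25141 in controls, with 5 of 5 above 0 and a median difference of 0.51. The 3 cortical excitatory markers summed to between 2540.5 and 5336 against 1491 to 5872, with a median difference of 0.44. The part of these markers in the values of the subunit genes was not tested.

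Between NAc susceptible and unsusceptible pools, 0 of 8 genes passed, beside 0% of all named genes, and 3.95% of all named genes reached an unadjusted p under 0.05. Grin2a was the only 1 of the 8 to do so, with 8.66, 8.72 and 8.83 against 8.15, 8.66 and 8.30, a difference of 0.36 ± 0.12 (adjusted p 0.999) in which 1 unsusceptible pool reached the level of the susceptible ones. Probe 6130278 of Gria3 had the smallest p of all 19 probes here. It read 9.87, 10.02 and 10.12 in susceptible and 9.58, 9.28 and 9.61 in unsusceptible pools, a difference of 0.51 ± 0.11 (adjusted p 0.486). Probes 6860154 (0.39) and 2900164 (0.26) of Gria3 were also higher in susceptible pools, whereas the brightest Gria3 probe differed by 0.06 ± 0.10. Gria1 differed by 0.18 ± 0.11 by its brightest probe. Its other probes differed by 0.29 (1340152), 0.30 (4920440) and 0.02 (3780750), none past the threshold.

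In the VTA, susceptible against control, 0 of 8 genes passed, beside 0% of all named genes, and 1 reached an unadjusted p under 0.05, beside 3.14%. Gria4 read 9.30, 9.16 and 9.33 in susceptible pools, all below the controls at 9.50, 9.65 and 9.35. Its difference was -0.23 ± 0.10 (unadjusted p 0.0331, adjusted p 1.00). Grin2a read 7.76, 7.87 and 7.80 against 7.98, 8.0 and 7.98, also without overlap, a difference of -0.18 ± 0.12. Pools did not overlap for 9.07% of all named genes in this comparison. Blood markers summed to between 61690 and 87130.3 in VTA susceptible and to between 23387 and 50244 in VTA control pools, and their part in these values was not tested.

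In the VTA, unsusceptible against control, 0 of 8 genes passed, beside 0.0116% of all named genes, and 2 reached an unadjusted p under 0.05, beside 7.99%. Grin2b had the largest difference of any subunit gene between behaviour groups of a structure. Its unsusceptible pools read 9.39, 9.18 and 9.91 and its controls 9.25, 8.84 and 8.76, so the groups overlapped. The difference was 0.54 ± 0.14 (unadjusted p 0.000782, adjusted p 0.432). Without unsusceptible pool 3, the pool with few dopamine neuron transcripts, it was 0.33 ± 0.13 (adjusted p 0.950), and without pool 2 it was 0.70 and passed the threshold (adjusted p 0.0154).

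Marker levels differed between these pools as well. In unsusceptible pools 1, 2 and 3 the 4 dopamine neuron markers summed to 35304, 59620 and 7036, where the controls ran from 47045 to 60924. Cortical excitatory markers summed to 1298, 495 and 932 against 503 to 809 in controls, and the cerebellar granule list to 4174, 1154 and 8411 against 1153 to 2245, while Gabra6, the most specific gene of that list, was dim. The 3 genes of the cerebellar list split, with 2 higher and 1 lower at an unadjusted p under 0.05. Their differences ran from -0.29 to 1.19, and 0 passed the threshold. Oligodendrocyte markers (4 of 5 measured) summed to between 90738 and 107688 against 113564 to 121033, and 2 of them passed the threshold, Mog (-0.66) and Mobp (-0.75, adjusted p 0.0259 each), while 0 of 4 passed without pool 3, with a list median of -0.34. Over the 3 unsusceptible pools, the summed cerebellar and astrocyte lists had the same order as Grin2b. By mean log2 intensity the astrocyte list had the reverse order, at 11.96, 12.05 and 11.79 in pools 1, 2 and 3. Its genes split against controls, with 1 higher and 2 lower at an unadjusted p under 0.05 and a median of -0.10. The dopamine, medium spiny, GABA and oligodendrocyte sums had the reverse order. By mean log2 intensity the oligodendrocyte list had neither order (13.90, 13.87 and 13.52). The cortical, microglia and blood sums and the midbrain glutamate marker had neither order. An order over 3 pools is a description, and its link to Grin2b was not tested. The part of other cell types in the Grin2b value was not tested. Leaving out pool 3 cannot test it, since pool 1 stays in. Pool 1 had a dopamine sum below all controls and cortical and cerebellar sums above all controls.

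**Figure D5:**
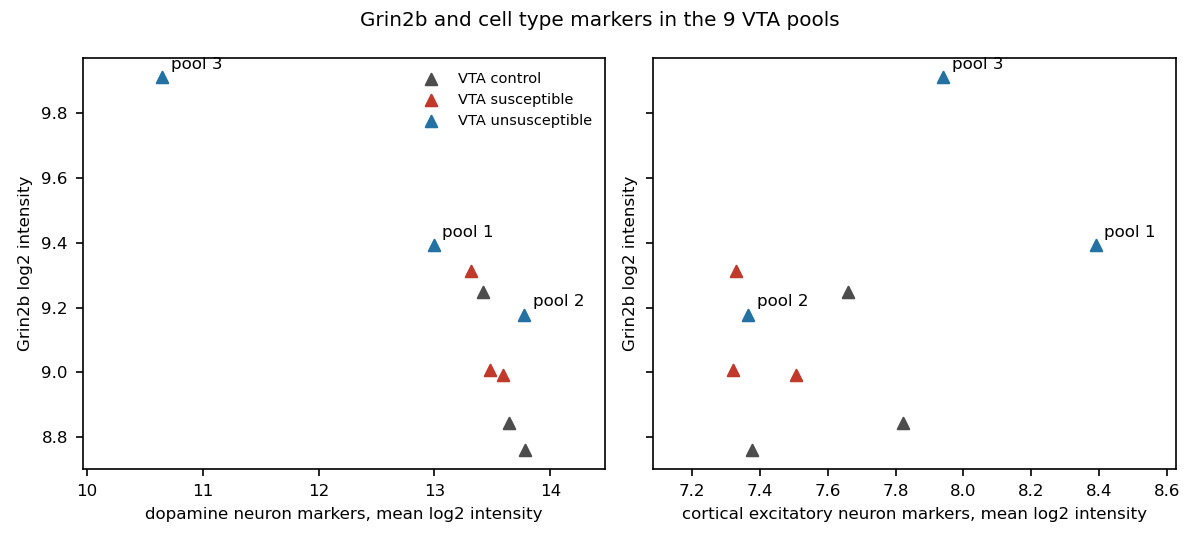
Log2 intensity of Grin2b (vertical axes) in the 9 VTA pools against the mean log2 intensity of 4 dopamine neuron markers and of 3 cortical excitatory neuron markers (horizontal axes), with the behaviour groups by colour and the unsusceptible pools numbered. Pool 3 has the highest Grin2b level, 9.91, and the lowest dopamine marker level, 10.65.

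Gria4 was lower in VTA unsusceptible pools by its brightest probe, at 9.34, 9.30 and 9.10 against 9.50, 9.65 and 9.35, again with no overlap (13.5% of all named genes had none), by -0.25 ± 0.10 (adjusted p 0.628), and by -0.18 without pool 3. The other Gria4 probes shifted less. Probe 101690519 had means of 8.20, 8.11 and 8.22 in VTA control, susceptible and unsusceptible pools. The dim probe 102470035 had means of 7.15, 7.14 and 7.10. The other genes differed by between -0.23 ± 0.12 (Grin2a) and 0.17 ± 0.11 (Gria1). Without pool 3 Gria1 differed by 0.05 and Grin2c, at 0.16 with all pools, by 0.06. Between susceptible and unsusceptible VTA pools, 0 of 8 genes passed, beside 0% of all named genes, and 1 reached an unadjusted p under 0.05, beside 5.71%. Grin2b differed by -0.39 ± 0.14 (adjusted p 0.895), and by -0.18 without unsusceptible pool 3.

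The tests of whether an effect differed between the structures called 0 of 8 genes, beside 0% of all named genes in each. For susceptible against control, VTA minus NAc, 2 genes reached an unadjusted p under 0.05, beside 6.15%. Grin2a had the largest value, -0.57 ± 0.17 (adjusted p 0.584), from a difference of 0.40 in the NAc and -0.18 in the VTA. Gria4 followed with -0.35 ± 0.15 (adjusted p 0.732). For unsusceptible against control, 4 of 8 genes reached an unadjusted p under 0.05, beside 12.5% of all named genes. Grin2b had 0.78 ± 0.20 (adjusted p 0.221), and 0.94 with a call (adjusted p 0.0477) without VTA unsusceptible pool 2. Gria4 had -0.54 ± 0.15 (adjusted p 0.239). Gria1 (0.52 ± 0.16, adjusted p 0.290) and Grin2c (0.46 ± 0.18, adjusted p 0.362) had values of the opposite sign with median scaling, -0.10 and -0.15.

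The partner genes gave 0 calls in any behaviour comparison. The receptor signalling, trafficking and editing list had 7 of 14 measured genes higher at an unadjusted p under 0.05 in VTA unsusceptible against control pools, with a median of 0.19, beside 4.31% of all named genes and a median of 0.01. Camk2a differed by 1.03 ± 0.24 (adjusted p 0.430) and Nrgn by 0.74 ± 0.17 (adjusted p 0.342). Without unsusceptible pool 3 the list had 3 of 14, beside 2.64% of all named genes. Scaffold genes had 5 of 16 higher in the same comparison and 0 of 16 without pool 3. Auxiliary subunits had 2 of 10 higher and 1 lower, and kainate and delta subunits with Grin3b 1 of 6 higher.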

How the data were processed

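Total RNA (200 ng, linearly amplified and labelled with biotin per the labels' protocols) was hybridised to 18 one-colour arrays run at one time per the series' design text. The deposited per-sample tables hold 1 linear intensity per probe, with no background or detection column. Which scanner software made them is not given in the sources used here. Intensities in the authors' table of the whole series keep the rank order of the scanner values, with the same maximum in each column and 3949 missing values, and served as an alternative. The package affy is listed, with no version, per the submitters' processing notes. The table's scale is linear, its column medians run from 170.44 to 170.63, and it is not centred on genes.

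Of 44547 probes, 42 were empty on every array. Genes were named from the platform table (28482 probes with 1 gene, 11 with several, 16012 with none). Intensities were taken to log2, quantile normalized and fitted with limma 3.58.1 in R 4.3.3, with a mean per group, all 18 arrays, an intensity trend and 12 residual and 11.7 prior degrees of freedom. Tests were two-sided, adjusted by Benjamini-Hochberg over all probes of a contrast at a threshold of 0.05. Precision is limited by the number of arrays. The code was tested on simulated data. Named were the 8 measured genes throughout, up to 4 called partner genes per list and direction, and the 2 genes most like each subunit gene. Members and lists were chosen with earlier results of these data known. The replicate numbers were not taken to pair samples in the main fit. Same-numbered pools deviated together somewhat more than pools of different number. What they shared was not tested, and a replicate block was run as an alternative. Alternatives were other scaling, filters, weights, subsets, a replicate block and leaving out arrays.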

Additional observations from a re-analysis of the deposited data

How the results depend on the processing

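Between the structures, 7 of 8 subunit genes passed under every alternative run, while the number of probes called ran from 8644 to 12805, and from 11911 to 12499 with 1 array left out. In control pools 8643 probes and 7 subunit genes passed, but 5087 probes and 4 genes with median scaling, and 7342 to 8543 probes and 6 to 7 genes with 1 array left out.

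In the behaviour comparisons, 0 subunit genes passed under the alternatives run, except that Grin2b passed without VTA unsusceptible pool 2, so that the range with 1 array left out was 0 to 1 for VTA unsusceptible against control and for its difference from the NAc. Counts of all probes past the threshold were unstable, and the cause was not tested. Median scaling gave 1229 for NAc unsusceptible against control (1 in the report's setting), 0 for NAc susceptible against unsusceptible (1), 11 for VTA susceptible against control (1), 0 for VTA unsusceptible against control (3) and 8 for the unsusceptible difference between structures (0). Bright probes alone gave 18 for NAc susceptible against control (29), 0 for NAc unsusceptible and 0 for VTA susceptible against control. Array weights gave 0 and 13 for the same pair, and no intensity trend gave 0 for both VTA comparisons with controls. A structure fitted alone gave 4 for NAc unsusceptible against control, 0 for NAc susceptible against unsusceptible, and 0 for both VTA comparisons with controls. A replicate block gave 79 and 203 for NAc susceptible and unsusceptible against control, 0 and 7 for the VTA, and 7 and 2 for the differences between structures, and it lost the Grin2a call in control pools (-0.35, adjusted p 0.0519). Same-numbered pools had a median correlation of deviations of 0.05 over 45 pairs, with 9 above 0.1. Pools of different number had a median of -0.015 over 90 pairs, with 2 above 0.1. Without the 3 arrays that stood apart the counts were 5 for NAc susceptible against control, 0 for NAc susceptible against unsusceptible, 14 for VTA susceptible and 0 for VTA unsusceptible against control. With 1 array left out they ran from 0 to 143, 0 to 404, 0 to 0, 0 to 15, 0 to 270 and 0 to 138 for the 6 comparisons within a structure in the report's order, and from 0 to 1 and 0 to 61 for the differences between structures.

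Of the values of subunit genes and probes under all alternatives, 3163 stayed within the spread between pools or on their side of the threshold, 106 moved further, 16 lost a call and 4 gained one. Called values kept their sign. With the mean of all probes of a gene, Grin2a in control pools lost its call (-0.12, adjusted p 0.324). Probe sequences are not used here, so which transcript forms each probe reads is not known, and 4 of the 19 probes were dim.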
